A study of Mus musculus with 32 samples.

Results

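The transcripts of 9 regulators of mitochondrial biogenesis and oxidative metabolism were followed in mouse muscle. They are the coactivators *Ppargc1a* and *Ppargc1b*, the orphan nuclear receptors *Esrra* and *Esrrg*, the fatty acid receptors *Ppara* and *Ppard*, and the factors *Tfam*, *Nrf1* and *Gabpa*. They were taken as a fixed list of symbols, chosen with earlier results of these data known. All 9 were found among the 54838 genes of the count table. RNA of tibialis anterior (TA) muscle, as the study names it, was sequenced on postnatal days 1, 14, 21 and 35 (P1, P14, P21, P35), with 4 wild-type (WT) and 4 *Mtm1* knockout (KO) libraries per age and 32 in all. The study's RNA-seq methods describe only the muscle of the 3 later ages, and the sample labels give the tissue of all ages only as skeletal muscle and the background of both genotypes as C57BL6/J. *Mtm1* is the X-linked gene for the lipid phosphatase myotubularin, and the KO allele, carried in the germline, has a targeted deletion in exon 4. The line had first been made on the 129S2PAS background and was later moved to C57BL6/J. The labels name no other allele and no treatment, so each comparison asks how the loss of *Mtm1*, or age, goes with the level of a regulator.

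*Ppargc1a* and *Ppargc1b* encode PGC-1α and PGC-1β, which bind no DNA themselves and are brought to promoters by transcription factors. Among those factors are the oestrogen-related receptors ERRα and ERRγ (*Esrra*, *Esrrg*), the receptors PPARα and PPARδ (*Ppara*, *Ppard*), NRF1 and GABP, whose DNA-binding subunit is encoded by *Gabpa*. These act on nuclear genes for the respiratory chain and fatty acid oxidation, among them *Tfam*, whose product packages mitochondrial DNA and starts its transcription. In skeletal muscle the pathway is known for setting mitochondrial content and for its response to exercise.

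Depth ranged from 49321035 to 85631408 counts per library. *Mtm1* was at 18.9 to 24.9 CPM (counts scaled to a common library size) in the 12 WT libraries of P14 to P35 and at 2.64 to 4.51 CPM in the 12 KO libraries. At P1, *Mtm1* was at 5.26 to 6.02 CPM in WT and at 2.32 to 2.45 CPM in KO replicates 1 to 3. The difference did not pass in the fit of the 8 libraries of that age (edgeR quasi-likelihood adjusted *P*=0.0669) but passed without KO replicate 4 (adjusted *P*=0.0034). With that library kept, it passed by DESeq2 (adjusted *P*=2.12e-05) and in the edgeR fit of all 32 libraries (adjusted *P*=0.000141). KO replicate 4 at P1 stood apart, with *Mtm1* at 3.91 CPM and a summed level of 6 muscle fibre markers of 15580 CPM, against 22610 to 31290 CPM in the other 7 libraries of that age. At P1 the 6 keratinocyte markers summed to 1805 to 6712 CPM in every library, and to at most 7.09 CPM at any later age. Whether the tissue taken at P1 matches that of later ages was not tested. At P14, replicate 4 of both genotypes stood apart in *Ppargc1b* and *Esrra*. Calls of the regulators between genotypes at P1 and P14 are given with and without these libraries. The ratios within libraries and the counts of the gene lists at P1 and P14 are given only with them. Correlations between genes include the P14 replicate 4 libraries throughout.

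Each of the 9 genes lies on a chromosome of its own, and all are protein-coding in the GENCODE M21 annotation of GRCm38. *Ppargc1a* is at chr5:51454250-51567726, *Esrra* at chr19:6910977-6921813 and *Esrrg* at chr1:187608791-188214885. *Ppara* is at chr15:85734983-85802819, *Ppard* at chr17:28232700-28301474, *Tfam* at chr10:71225464-71238280, *Nrf1* at chr6:30047988-30153458 and *Gabpa* at chr16:84834925-84863779. *Ppargc1a*, *Ppargc1b*, *Esrra* and *Tfam* are on the minus strand, and the others are on the plus strand. *Gabpa* shares 397 of its 5687 exon bases with *Atp5j* on the opposite strand, a gene with 708798 counts over all libraries against 94643 for *Gabpa*. *Esrra* shares 73 of 4387 exon bases with *Trmt112* on the opposite strand. The libraries kept the strand, but whether the counting used it is not given in the sources used here, so the values of *Gabpa* and *Esrra* are uncertain to that extent.

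Because several of these regulators act through DNA that other members bind, their promoters were searched for 5 short motifs on both strands. RefSeq promoter windows on GRCm38.p6 ran from 250 bases before to 50 bases after a transcription start. They were searched for 8 of the 9 genes, all but *Ppargc1b*, and numbered 12. The NRF1 motif GCATGCGC was found in the windows of *Esrra* and *Ppara* and in 2.71% of all 32851 windows. The motif CCGGAAG, bound by GABP and other ETS factors, was found in the windows of *Tfam* and *Gabpa* and in 8.86% of all windows. None of these 12 windows held the ERR half-site AAGGTCA, the extended ERR half-site TCAAGGTCA or the CREB motif TGACGTCA. These 3 motifs were present in 4.72%, 0.423% and 1.79% of all windows. TCAAGGTCA contains AAGGTCA, and no other motif searched contains another. These matches describe the letters of the windows and were not tested as binding sites. The 4 stretches below carry the matches in capitals and are shown because a factor that can bind such a motif is itself one of the 9 regulators. Whether it binds these stretches was not tested. For *Esrra* (chr19:6921814-6922058, minus strand) and *Ppara* (chr15:85735714-85735775, plus strand) the bases shown lie outside annotated exons. For *Tfam* (chr10:71238073-71238102, minus strand) and *Gabpa* (chr16:84835020-84835049, plus strand), an annotated exon touches the motif and 30 bases around it are shown. The capitals begin 34 bases before the start for *Esrra*, 31 for *Ppara*, 47 for *Tfam* and 93 for *Gabpa*. The 10 capitals of *Ppara* are overlapping matches on the plus and minus strands.
*Esrra*: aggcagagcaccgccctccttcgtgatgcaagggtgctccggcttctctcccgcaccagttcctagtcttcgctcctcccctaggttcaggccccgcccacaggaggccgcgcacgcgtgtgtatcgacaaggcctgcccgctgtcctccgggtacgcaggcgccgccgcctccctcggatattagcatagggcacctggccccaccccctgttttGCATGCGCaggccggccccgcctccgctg
*Ppara*: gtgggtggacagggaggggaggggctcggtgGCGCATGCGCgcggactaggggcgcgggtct
*Tfam*: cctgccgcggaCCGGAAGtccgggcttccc
*Gabpa*: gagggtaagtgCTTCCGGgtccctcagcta

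Levels were first compared between the 9 genes, as CPM per kilobase of merged exons. In WT muscle at P35, *Esrra* had the highest level, at 39.0 ± 2.53 CPM per kilobase (SD, n=4), followed by *Tfam* at 14.0 ± 0.782. *Ppargc1a* at 8.73 ± 0.989 and *Gabpa* at 8.18 ± 0.385 came next and overlapped. *Esrrg* at 5.66 ± 1.70 overlapped *Ppard* at 5.36 ± 0.648 CPM per kilobase. *Ppargc1b* at 3.0 ± 0.431 overlapped *Ppara* at 2.97 ± 1.01, and *Nrf1* was lowest at 1.19 ± 0.0694 CPM per kilobase. Apart from these 3 overlapping pairs, neighbours in the order did not overlap in WT at P35. At P1 the order in WT was different, with *Gabpa* at 8.12 ± 0.552, *Esrra* at 7.90 ± 0.382 and *Tfam* at 6.72 ± 0.587 CPM per kilobase overlapping at the top. *Esrrg* was lowest at P1, at 0.590 ± 0.0785 CPM per kilobase, with no WT library reaching those of the other 8 genes. With the longest transcript in place of merged exons, *Esrra* and *Tfam* stayed first and second and *Nrf1* last in WT at P35, while *Ppard* moved from rank 6 to rank 3.

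**Figure D1:**
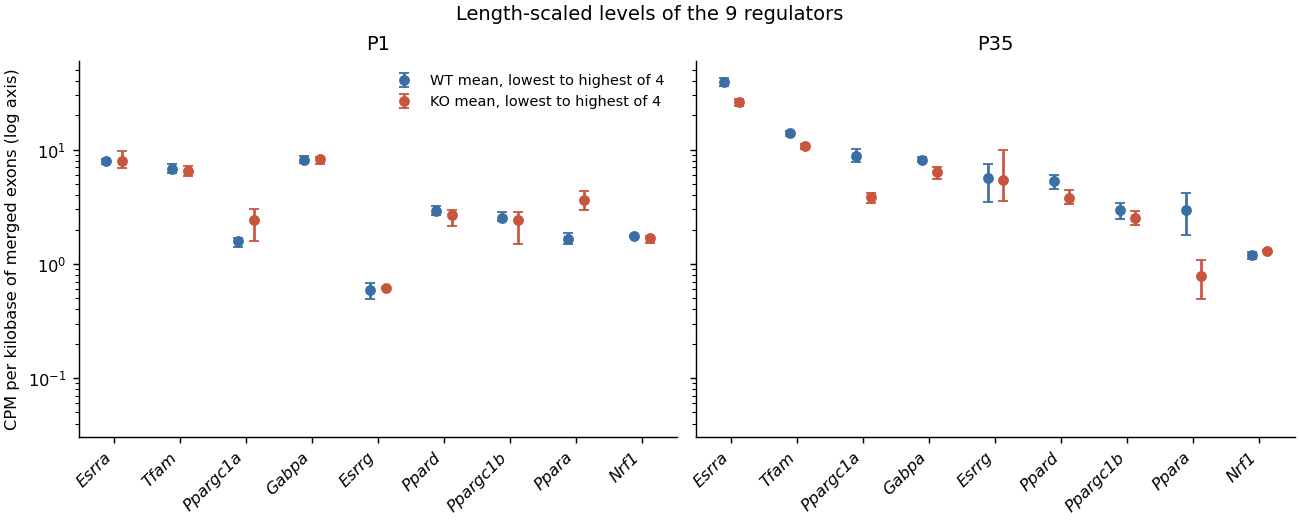
Levels of the 9 regulators as CPM per kilobase of merged exons on a log axis, at P1 (left) and P35 (right), in WT (blue) and KO (red). Points are means of 4 libraries and bars run from the lowest to the highest library. At P35 *Esrra* was highest in both genotypes and *Ppara* was at 2.97 in WT and 0.782 in KO.

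Between P1 and P14, most of the 9 regulators rose in WT muscle. *Esrrg* rose most, from 3.66 ± 0.487 to 29.9 ± 2.94 CPM (SD, n=4), an 8.08-fold increase (log2 fold change 3.02, SE 0.11, edgeR quasi-likelihood adjusted *P*=4.25e-08). *Ppargc1a* rose 3.92-fold, *Esrra* 2.27-fold, *Ppard* 2.07-fold, *Tfam* 1.79-fold and *Ppargc1b* 1.5-fold. *Nrf1* fell from 18.1 ± 0.355 to 13.3 ± 0.831 CPM (log2 fold change −0.45, SE 0.06). *Ppara* and *Gabpa* had log2 fold changes of −0.05 and 0.11 and did not pass. Of all 17435 genes tested in WT, 37.3% rose and 42.1% fell over this interval, against 6 and 1 of the 9 regulators. With scaling to library totals in place of TMM, the median of all genes moved down by 0.77 in WT and 0.71 in KO on the log2 scale. Under that scaling *Ppargc1b* reversed to −0.17 in WT and −0.0015 in KO, and *Tfam* was at 0.06 and 0.14 without passing. *Gabpa* (−0.65 in WT and −0.64 in KO) and, in WT, *Ppara* (−0.83) passed as lower. The make-up of the libraries moved over the same interval. In WT the muscle fibre marker sum went from 23140 to 31030 CPM at P1 to 111700 to 148700 CPM at P14, and 5 fibroblast markers from 11970 to 16040 CPM to 4027 to 7976 CPM. The keratinocyte sum went from a mean of 3549 to 3.46 CPM, and the share of counts from mitochondrially encoded genes from 2.99 to 4.02% to 7.84 to 9.32%. Their part in the changes of the regulators between P1 and P14 was not tested. KO muscle went through the same interval with 6 regulators higher and 2 lower, against 34.2% and 39.6% of the 17719 genes tested in KO. As log2 fold changes, *Esrrg* rose by 2.92, *Ppargc1a* by 1.37, *Esrra* by 1.18, *Ppard* by 1.12, *Tfam* by 0.86 and *Ppargc1b* by 0.68. *Ppara* fell by 1.48 (SE 0.16, adjusted *P*=2.86e-05) and *Nrf1* fell by 0.32. All 15 calls over this interval in both genotypes passed when any 1 library was left out.

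From P14 to P21, 4 regulators rose in WT, against 13.0% of 15337 genes, and 0 fell, against 12.6%. *Ppara* rose by 1.04 (SE 0.12), *Esrra* by 0.73 (SE 0.10), *Esrrg* by 0.58 (SE 0.12) and *Ppargc1a* by 0.30 (SE 0.08) on the log2 scale, with adjusted *P*-values of 0.000941, 0.00135, 0.00927 and 0.0200. The call of *Ppargc1a* was lost without WT P14 replicate 1 (adjusted *P*=0.0639) or replicate 2 (0.0596) and with library totals (0.197). In KO none of these rose with TMM scaling, although *Esrra*, at 0.28 (adjusted *P*=0.0726), passed as higher with library totals (0.26, adjusted *P*=0.0330), and *Ppargc1a* fell by 0.47 (SE 0.08, adjusted *P*=0.00417). *Gabpa* fell by 0.19 (SE 0.06, adjusted *P*=0.0483), a call that stood only without KO P14 replicate 4 or KO P21 replicate 1 and otherwise had adjusted *P*-values of 0.0663 to 0.137 when 1 library was left out. Of all genes tested in KO, 13.4% rose and 14.2% fell. In the test of the difference between genotypes over this interval, *Ppargc1a* alone of the 9 passed (edgeR adjusted *P*=0.0208), and the changes of *Ppara* (0.309), *Esrra* (0.143) and *Esrrg* (0.642) were not shown to differ.

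From P21 to P35, *Ppargc1b* fell in both genotypes, by 0.74 (SE 0.17) in WT and by 0.44 (SE 0.11) in KO. *Esrra* rose in both, by 0.36 (SE 0.08) and 0.22 (SE 0.07). In KO, *Ppard* also fell by 0.68 (SE 0.11, adjusted *P*=0.00402), *Ppara* by 1.01 (SE 0.31, adjusted *P*=0.0422) and *Gabpa* by 0.29 (SE 0.09, adjusted *P*=0.0403). Among all genes 9.99% rose and 7.67% fell in WT, and 11.9% rose and 12.0% fell in KO. The fall of *Ppargc1b* in WT was lost without WT P21 replicate 3 (adjusted *P*=0.0509). With library totals, *Ppard* (−0.32, adjusted *P*=0.0473) and *Nrf1* (−0.24, adjusted *P*=0.0455) also passed as lower in WT, whereas in KO *Ppargc1b* (−0.30, adjusted *P*=0.0993), *Ppara* (−0.87, 0.0686) and *Gabpa* (−0.15, 0.287) no longer passed. With TMM scaling in KO, leaving out 1 library kept the call of *Ppard* in 8 of 8 fits, of *Ppargc1b* in 4, of *Ppara* in 3, of *Esrra* in 2 and of *Gabpa* in 1, with highest adjusted *P*-values of 0.0146, 0.0609, 0.115, 0.116 and 0.0995.

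**Figure D2:**
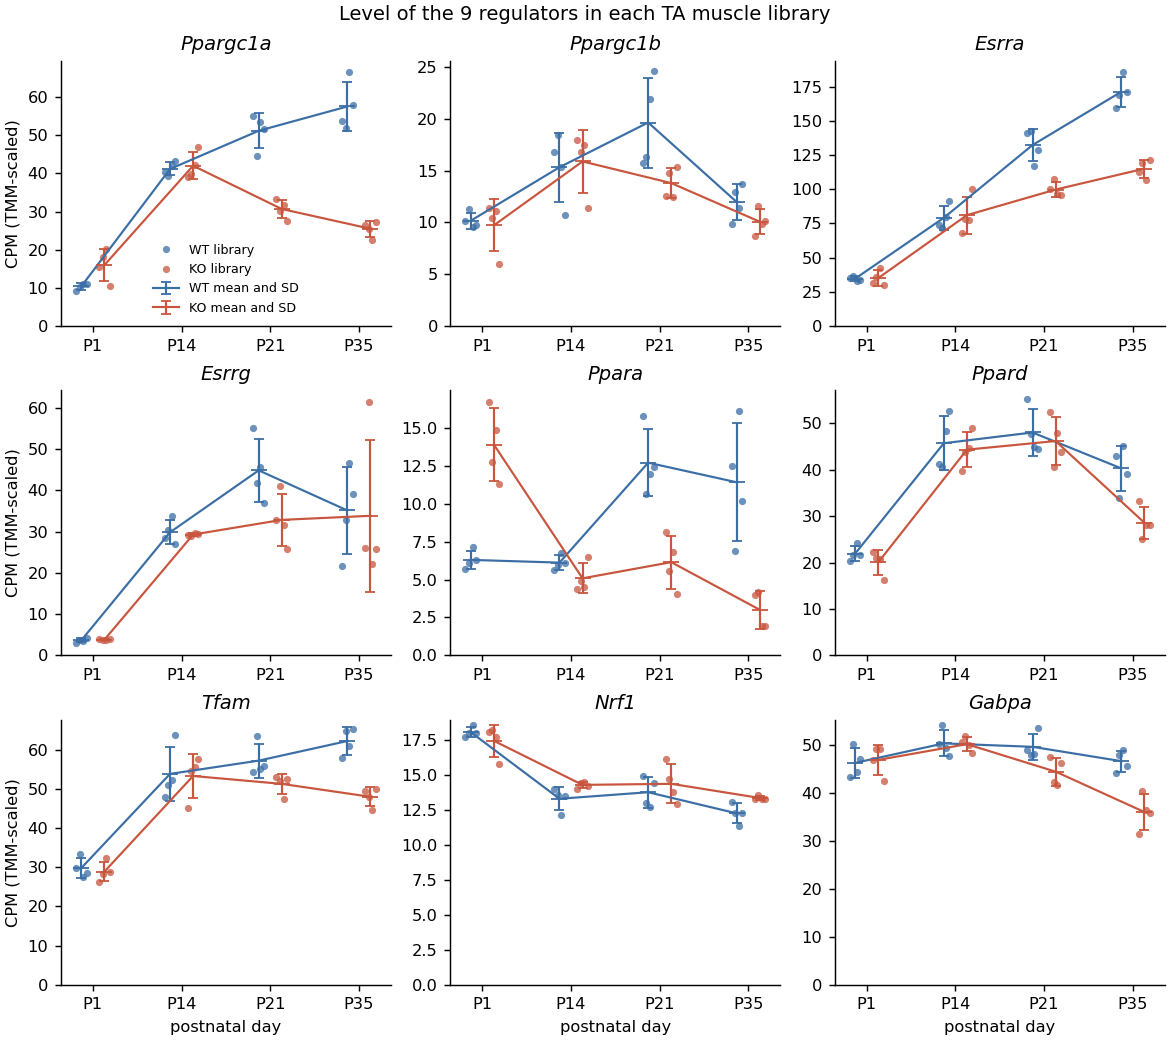
CPM of each regulator in every library by age, in WT (blue) and KO (red). Points are single libraries, and lines join group means with SD bars (n=4). *Ppargc1a* overlaps between genotypes at P14 and is lower in KO at P21 and P35. At P1 all KO libraries but replicate 4 lie above WT for *Ppargc1a*. *Ppara* is higher in KO than in WT at P1 and lower at P21 and P35.

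At P1, *Ppara* was the one regulator that passed in the fit of the 8 libraries of that age. WT replicates 1 to 4 had 5.72, 6.06, 7.12 and 6.28 CPM, and KO replicates 1 to 4 had 16.7, 12.7, 14.8 and 11.3 CPM. The lowest KO value thus exceeded the highest WT value. The difference was 2.23-fold (log2 fold change 1.16, SE 0.13, adjusted *P*=0.0144), at an age when 0.215% of 18100 genes rose in KO and 0.0276% fell. The call was lost without WT replicate 1 (adjusted *P*=0.0759), 2 (0.0894) or 4 (0.0656), held without KO replicate 4, and was lost in the fit of all 32 libraries (0.0521), in which *Ppargc1a* passed instead (0.62, adjusted *P*=0.0473). The log2 fold change stayed between 1.05 and 1.24 in these fits with 1 library left out.

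*Ppargc1a* was at 9.32, 10.2, 11.1 and 11.1 CPM in WT at P1 and at 15.4, 18.0, 20.2 and 10.5 CPM in KO. KO replicate 4, the library with little muscle fibre RNA, lay within the WT range and the other 3 lay above it. The log2 fold change was 0.63 (SE 0.18) and did not pass (adjusted *P*=0.238), but was 0.79 and passed without KO replicate 4 (adjusted *P*=0.0221). The other 7 regulators had log2 fold changes of −0.12 to 0.07 at P1. Differences in a bulk sample can come from fewer cells of a type or from less RNA per cell, which cannot be told apart here.

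At P14, 0 of the 9 regulators passed, and their log2 fold changes ran from −0.27 for *Ppara* to 0.10 for *Nrf1*. The lowest adjusted *P*-value by edgeR's quasi-likelihood test was 0.777, 0 had an unadjusted *P* under 0.05, and DESeq2 called 0. *Ppargc1a* was at 40.3, 39.4, 42.0 and 43.2 CPM in WT and at 39.2, 40.0, 42.1 and 46.9 CPM in KO, so the groups overlapped. *Nrf1* ran from 12.1 to 14.02 CPM in WT and from 14.04 to 14.5 CPM in KO and did not pass (edgeR adjusted *P*=0.847). *Ppara* was at 5.63, 5.95, 6.77 and 6.10 CPM in WT and at 4.35, 4.92, 4.54 and 6.50 CPM in KO. Of all 15728 genes, 0.089% rose and 0.00636% fell, 15 in all. Same-numbered WT and KO libraries deviated together at this age, and a paired fit, in which replicate numbers formed a block, called 883 genes but still 0 of the 9 regulators. Both replicate 4 libraries had the lowest *Ppargc1b* (10.7 CPM in WT, 11.4 in KO) and the highest *Esrra* (91.3 and 100.1) of their groups, and without both of them 0 regulators passed.

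At P21 and P35 the regulators were lower in KO or did not pass, and none rose with TMM scaling, whereas with library totals *Nrf1* passed as higher at both ages. At P21 4 of 9 fell, against 9.57% of 15179 genes that fell and 11.4% that rose, and at P35 6 of 9 fell, against 20.1% of 15595 genes that fell and 21.4% that rose. The strongest differences were those of *Ppargc1a* and *Ppara*, which were also the only 2 DEGs among the 9 at either age (adjusted *P* below 0.01 and a change beyond 1.5-fold either way), against 4.67% and 16% of all genes. The median log2 fold change of the 9 genes was −0.39 at P21 and −0.35 at P35, beside 0.01 and 0.04 for all genes tested. All KO libraries lay below all WT libraries for 6 regulators at each age, against 11.0% and 20.4% of all genes. Library totals moved the median of all genes up by 0.19 at P21 and 0.40 at P35, and the share of changed genes that were higher from 54.4% to 89.0% and from 51.6% to 90.2%. That shift bears on the smaller differences below, whereas *Ppargc1a* and *Ppara* passed at both ages under either scaling.

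Among the coactivators, *Ppargc1a* was at 55.1, 44.6, 53.5 and 51.6 CPM in WT at P21 and at 33.4, 30.2, 31.7 and 27.5 CPM in KO. At P35 it was at 53.8, 52.0, 66.6 and 58.0 CPM in WT and at 26.6, 25.5, 22.6 and 27.4 CPM in KO. No KO library reached any WT library at either age. KO muscle held 0.604 of the WT level at P21 (log2 fold change −0.73, SE 0.08, adjusted *P*=0.000815) and 0.451 at P35 (−1.15, SE 0.10, adjusted *P*=8.51e-05), and both calls held whichever library was left out. *Ppargc1b* (chr18:61298136-61400431) was at 15.8, 16.3, 21.9 and 24.6 CPM in WT at P21 and at 12.6, 14.8, 12.5 and 15.3 CPM in KO, again without overlap. Its log2 fold change of −0.50 (SE 0.16) passed narrowly (adjusted *P*=0.0492) and was lost when any of 6 libraries was left out, all but WT P21 replicates 1 and 2 (adjusted *P* from 0.0688 to 0.108), in the fit of all 32 libraries (0.0514) and with library totals (0.179). At P35 the difference in *Ppargc1b* was −0.22 on the log2 scale (SE 0.13, adjusted *P*=0.188), or 0.18 with library totals.

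Among the ERR receptors, *Esrra* was at 141, 142, 117 and 129 CPM in WT at P21 and at 100, 107, 96.2 and 95.5 CPM in KO. At P35 it was at 159, 168, 186 and 171 CPM in WT and at 113, 120, 107 and 121 CPM in KO. The genotypes did not overlap at either age. The log2 fold changes were −0.39 (SE 0.07, adjusted *P*=0.00604) and −0.55 (SE 0.08, adjusted *P*=0.000596). With library totals *Esrra* still fell at P21 (−0.20, adjusted *P*=0.0271), but at P35 it was at −0.15 and did not pass (0.150). *Esrrg*, the ERR receptor of highly oxidative tissues, was at 55.1, 41.7, 45.8 and 36.9 CPM in WT at P21 and at 32.8, 41.2, 31.7 and 25.8 CPM in KO, with overlap. Its log2 fold change at P21 of −0.44 (SE 0.15) did not pass (adjusted *P*=0.0724), but passed by DESeq2 (0.0253) and without WT replicate 4 (0.0478) or KO replicate 2 (0.0316). At P35 *Esrrg* was at 21.8, 32.8, 46.8 and 39.2 CPM in WT and at 26.1, 61.3, 22.1 and 25.9 CPM in KO. KO replicate 2 was thus above every WT library, and the other 3 KO libraries lay between the lowest and second lowest WT libraries. Its log2 fold change was −0.03 (SE 0.34, adjusted *P*=0.958), or −0.49 (adjusted *P*=0.109) without KO replicate 2 and 0.39 with library totals.

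Among the PPAR receptors, *Ppara* was at 15.8, 10.6, 12.0 and 12.4 CPM in WT at P21 and at 8.13, 5.56, 6.83 and 4.05 CPM in KO. At P35 it was at 12.5, 6.86, 16.1 and 10.2 CPM in WT and at 3.99, 4.16, 1.95 and 1.91 CPM in KO. KO and WT did not overlap at either age, although WT at P35 spread from 6.86 to 16.1 CPM. The KO level was 0.488 of WT at P21 (log2 fold change −1.03, SE 0.20, adjusted *P*=0.00706) and 0.268 at P35 (−1.90, SE 0.34, adjusted *P*=0.00195), the largest change of the 9 at both ages. *Ppard*, which stood above *Ppara* per length in WT at P35, ran from 44.4 to 55.2 CPM in WT and from 40.6 to 52.4 CPM in KO at P21 (log2 fold change −0.04, adjusted *P*=0.765, or 0.15 with library totals). At P35 it was at 42.9, 34.0, 45.2 and 39.2 CPM in WT and at 33.3, 25.1, 28.0 and 28.1 CPM in KO, all below WT. That difference of −0.47 (SE 0.11, adjusted *P*=0.00898) shrank to −0.07 with library totals (adjusted *P*=0.596).

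Among the downstream factors, *Tfam* ran from 54.3 to 63.7 CPM in WT and from 47.6 to 53.0 CPM in KO at P21 (log2 fold change −0.15, SE 0.07, adjusted *P*=0.158, or 0.04 with library totals). At P35 *Tfam* was at 58.0, 64.8, 60.9 and 65.4 CPM in WT and at 49.5, 48.0, 44.6 and 50.04 CPM in KO, and fell by 0.35 (SE 0.07, adjusted *P*=0.00347), but was at 0.05 with library totals. *Gabpa* ran from 47.8 to 53.5 CPM in WT and from 41.7 to 47.5 CPM in KO at P21 (−0.15, adjusted *P*=0.132, or 0.04 with library totals). At P35 *Gabpa* was at 44.1, 47.8, 48.9 and 45.4 CPM in WT and at 31.4, 40.3, 36.4 and 35.7 CPM in KO, and fell by 0.35 (SE 0.08, adjusted *P*=0.00958), but was at 0.06 with library totals. *Nrf1*, which acts on respiratory chain promoters beside GABP, was at 12.7 to 15.0 CPM in WT and 12.9 to 16.1 CPM in KO at P21 (0.07, adjusted *P*=0.592). At P35 *Nrf1* was at 13.1, 12.3, 11.4 and 12.3 CPM in WT and at 13.3, 13.6, 13.3 and 13.3 CPM in KO, so that every KO library was above WT, by 0.15 (SE 0.08, adjusted *P*=0.141). With library totals *Nrf1* was at 0.26 (adjusted *P*=0.0323) at P21 and 0.55 (0.000297) at P35.

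**Figure D3:**
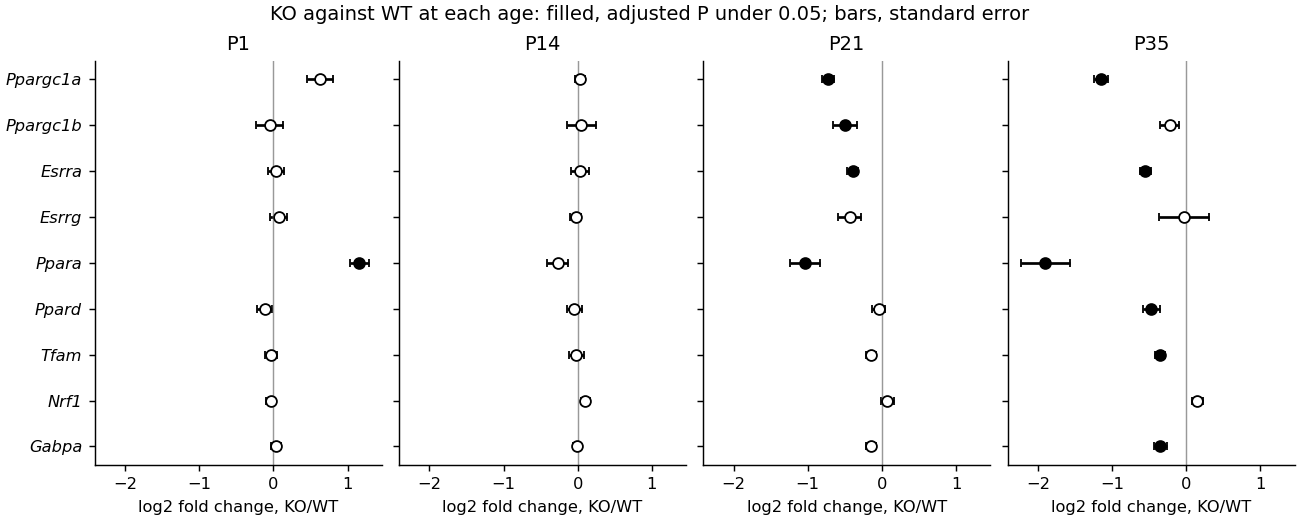
Log2 fold change of KO against WT for each regulator at P1, P14, P21 and P35, from edgeR, with TMM scaling and standard errors as bars. Filled points passed an adjusted *P* of 0.05. *Ppara* is at 1.16 at P1 and −1.90 at P35, and at P35 *Tfam* and *Gabpa*, filled here at −0.35, are at 0.05 and 0.06 with library totals.

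Whether the KO effect itself changed with age was tested as an interaction over all 32 libraries. From P14 to P21 the effect on *Ppargc1a* went down by 0.77 (SE 0.17, adjusted *P*=0.0208), and it was the only regulator to pass, against 1.42% of 18583 genes. It did not pass without WT P21 replicate 1 (adjusted *P*=0.0634), KO P21 replicate 4 (0.0514) or both P14 replicate 4 libraries (0.0587). Over the same interval the difference was −0.78 (SE 0.34, adjusted *P*=0.309) for *Ppara* and −0.44 (SE 0.15, adjusted *P*=0.143) for *Esrra*. From P21 to P35, 0 of 9 passed by edgeR or DESeq2 against 2.18% and 4.23% of all genes, and 4 of 9 had an unadjusted *P* under 0.05, against 17.4% of all genes. From P1 to P14, 0 of 9 passed by edgeR, against 0.0269% of genes, and 2 had an unadjusted *P* under 0.05, against 6.46%. The larger of these was −1.41 (SE 0.33, adjusted *P*=0.272) for *Ppara*, and DESeq2 called 1 regulator and 0.118% of genes.

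To set related regulators against each other without any scaling between libraries, the log2 ratio of their CPM was taken within each library, an analysis chosen after the data had been seen. *Ppara* relative to *Ppard* was higher in KO than in WT at P1, at −0.53 ± 0.13 against −1.80 ± 0.03 (SD, n=4, exact permutation *P*=0.0286). It was lower in KO at P21 (−2.95 ± 0.33 against −1.93 ± 0.17, exact permutation *P*=0.0286) and at P35 (−3.35 ± 0.63 against −1.88 ± 0.34, exact permutation *P*=0.0286), all 3 without overlap. *Ppargc1a* relative to *Ppargc1b* was higher in KO at P1 (0.72 ± 0.20 against 0.04 ± 0.20) and lower at P35 (1.35 ± 0.22 against 2.27 ± 0.27), also without overlap and with exact permutation *P*=0.0286. *Esrra* relative to *Esrrg* overlapped between genotypes at every age, with an exact permutation *P* of 0.371 at P35. With 4 libraries against 4, 0.0286 is the smallest two-sided *P* that 70 assignments can give, and over the 12 comparisons it adjusts to 0.0686, so that none passed 0.05. A ratio does not tell which gene of a pair moved.

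**Figure D4:**
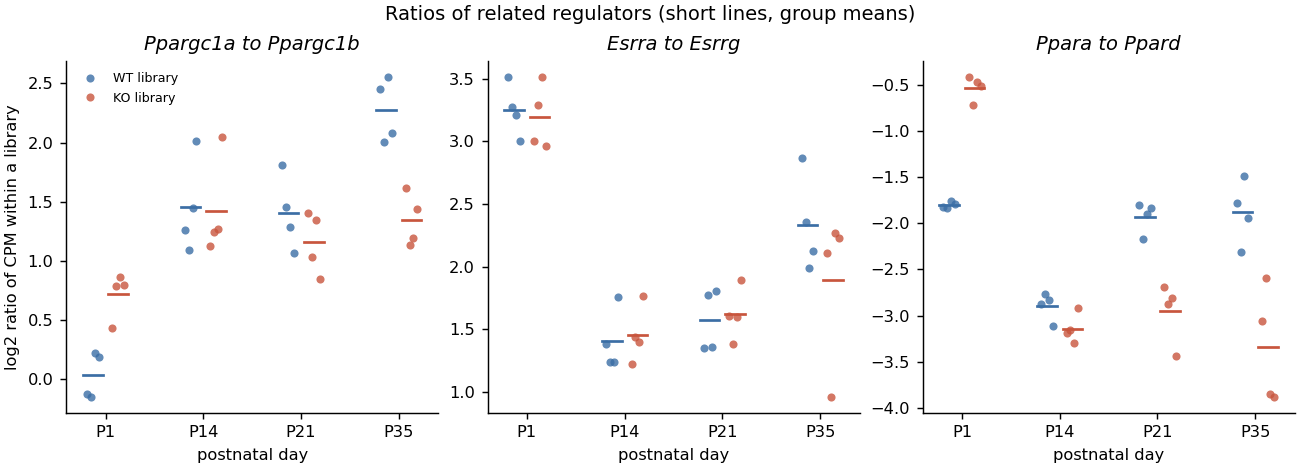
Log2 ratio of CPM within each library for 3 pairs of related regulators, by age, in WT (blue) and KO (red), with short lines at group means. WT and KO do not overlap for *Ppara* to *Ppard* at P1, P21 and P35 or for *Ppargc1a* to *Ppargc1b* at P1 and P35.

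The genes around the 9 regulators were read from 8 lists of 121 genes in all. The lists were chosen with earlier results of these data known, so their counts are descriptions and not independent tests. At P1, 0 of 121 changed by edgeR's quasi-likelihood test, 9 had an unadjusted *P* under 0.05, against 10.9% of all genes, and DESeq2 called 3, against 2.19%. At P14, 0 changed by edgeR, 6 had an unadjusted *P* under 0.05, against 6.82% of all genes, and DESeq2 called 1, against 0.966%. The paired fit with the replicate block called 9 of 121 at P14, against 5.61%. These counts at P1 and P14 are near or below those of all genes. Counts at P21 and P35 are given per list, with those under library totals beside them, and stand against 11.4% of all genes risen and 9.57% fallen at P21 and 21.4% and 20.1% at P35.

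Most target genes of ERR and PGC-1, a list of citric acid cycle enzymes, respiratory chain proteins and other muscle genes such as *Fndc5* and *Perm1*, fell at both ages. At P21 16 of 18 fell and 0 rose (median log2 fold change −0.45, or 14 fallen with library totals), and at P35 16 of 18 fell and 0 rose (median −0.80, or 14 fallen). *Fndc5*, the gene of the irisin precursor, fell by 1.10 (SE 0.13) at P21, from 171 ± 31.9 to 79.1 ± 6.41 CPM. *Idh3a*, a subunit of isocitrate dehydrogenase, fell by 0.71 (SE 0.09) at P21 and by 1.12 (SE 0.11) at P35, and *Idh3g*, another subunit, fell by 0.80 (SE 0.09) at P35. *Perm1*, a muscle regulator downstream of PGC-1 and ERR that is also in the coactivator list, fell from 372 ± 34.5 to 205 ± 27.4 CPM at P21 and from 328 ± 47.8 to 110 ± 22.1 CPM at P35 (log2 fold change −1.55, SE 0.16, adjusted *P*=0.000159).

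PPAR target genes were more mixed. At P21 11 of 21 fell and 0 rose (median −0.51), and at P35 8 fell and 2 rose (median −0.43). With library totals the counts were 5 fallen and 1 risen at P21, and 3 fallen and 4 risen at P35 (median −0.03). *Cpt1b*, the carnitine palmitoyltransferase of the outer mitochondrial membrane, fell by 0.46 (SE 0.08) at P21 and by 0.80 (SE 0.13) at P35, and *Cpt2* of the inner membrane fell by 0.73 (SE 0.11) at P35. *Slc22a5*, the carnitine transporter, fell by 0.48 and 0.65, where library totals gave adjusted *P*-values of 0.0517 and 0.0780. *Ehhadh*, a peroxisomal enzyme of fatty acid oxidation, fell by 0.77 (SE 0.09) at P21. Among those that rose at P35 was *Angptl4*, a lipoprotein lipase inhibitor (2.0, SE 0.66), named after its value was seen.

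Of the coactivators and corepressors, 3 of 13 fell at P21 (median −0.19) and 9 of 13 at P35 (median −0.63), with 0 risen at either age. With library totals 1 fell and 2 rose at P21, and 4 fell and 3 rose at P35. Besides *Perm1* these were led by *Lpin1*, a phosphatidate phosphatase that also acts with PGC-1α, which fell by 1.12 (SE 0.13) at P35. The corepressor *Ncor1* fell by 0.48 and 0.63 at P21 and P35, with adjusted *P*-values of 0.0524 and 0.0759 under library totals, and the coactivator *Ncoa1* fell by 0.46 at P21 (adjusted *P*=0.0353, or 0.135 under library totals). Leaving out 1 library lost the call of *Ncoa1* in 7 of 8 fits, all but that without KO replicate 1.

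Upstream kinases, deacetylases and transcription factors went both ways, with 7 of 26 higher and 3 lower at P21 (median 0.05) and 4 higher and 9 lower at P35 (median −0.10). The count of lower genes at P21 is near the share of all genes that fell, and that of higher genes at P35 is below the share that rose. With library totals 14 rose and 3 fell at P21, and 14 rose and 5 fell at P35. *Mef2c*, a muscle transcription factor, rose by 0.62 (SE 0.07) and *Hdac4*, a class II deacetylase that represses MEF2 factors, by 0.73 (SE 0.10) at P21, while the mitochondrial deacetylase *Sirt3* fell by 0.51 (SE 0.08). At P35 *Prkaa1*, the α1 subunit of AMP-activated kinase, rose by 0.86 (SE 0.09) from 26.2 to 46.8 CPM, and the subunits *Prkaa2* (α2) and *Prkab2* (β2) fell by 0.82 (SE 0.09) and 1.51 (SE 0.17). Of the other receptors, 1 of 9 fell at P21, near the 9.57% of all genes, and 4 of 9 at P35, against 20.1%, whereas with library totals 1 rose and 1 fell at P21 and 1 rose at P35. *Rxrg*, an RXR partner of the PPARs, fell by 0.90 (SE 0.16) at P21 and 0.85 (SE 0.20) at P35, and *Rxra* by 0.55 and the thyroid hormone receptor *Thra* by 0.21 at P35. Under library totals *Rxrg* (adjusted *P*=0.0667) and *Rxra* (0.194) did not pass at P35, and *Thra* turned to 0.19 and passed as higher (0.0417). *Thra* was also lost without WT P35 replicate 2 (adjusted *P*=0.0513), WT P35 replicate 4 (0.0695) or KO P35 replicate 3 (0.0516). *Esrrb* (−0.76, adjusted *P*=0.0542) and *Pparg* (−0.48, adjusted *P*=0.0754) did not pass at P21, but DESeq2 called both.

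Genes of mitochondrial DNA transcription and replication, the field of *Tfam*, fell in 5 of 17 cases at P21 (median −0.11) and 8 of 17 at P35 (median −0.23). With library totals 3 rose and 2 fell at P21, and 7 rose and 2 fell at P35. *Lrpprc*, a stabiliser of mitochondrial mRNA, fell by 0.42 (SE 0.08) and 0.68 (SE 0.09), the helicase *Twnk* by 0.35 (SE 0.06) and the protease *Lonp1* by 0.20 (SE 0.05) at P21. At P35 the mitochondrial RNA polymerase *Polrmt* fell by 0.61 (SE 0.08) and its cofactor *Tfb2m* by 0.47 (SE 0.06). *Lonp1* and *Tfb2m* did not pass with library totals (adjusted *P*=0.838 and 0.318), and *Lonp1* was also lost when any of 6 libraries was left out, all but WT P21 replicate 3 and KO P21 replicate 1 (adjusted *P* from 0.0531 to 0.0748). Mitochondrially encoded mRNAs fell in 13 of 13 cases at P21 (median −0.53, or 12 with library totals) and 10 of 13 at P35 (median −1.02, or 8). Of these, *mt-Atp8*, *mt-Nd4l* and *mt-Nd5* fell by 1.28, 1.48 and 1.57 at P35, and *mt-Nd2*, *mt-Nd4l* and *mt-Atp8* by 0.67, 0.85 and 0.58 at P21. These transcripts were counted after poly(A) selection. Among 4 partners of GABP and NRF1, *Dynll1*, a dynein light chain, rose by 0.63 (SE 0.11) and 0.81 (SE 0.15), and *Hcfc1*, a transcriptional coregulator, fell by 0.35 (SE 0.09) at P35 but was at 0.06 with library totals. *Gabpb1*, the subunit that pairs with the *Gabpa* product, had −0.16 at P21 and 0.16 at P35 and did not pass (adjusted *P*=0.160 and 0.260), but passed as higher at P35 with library totals (0.57).

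**Figure D5:**
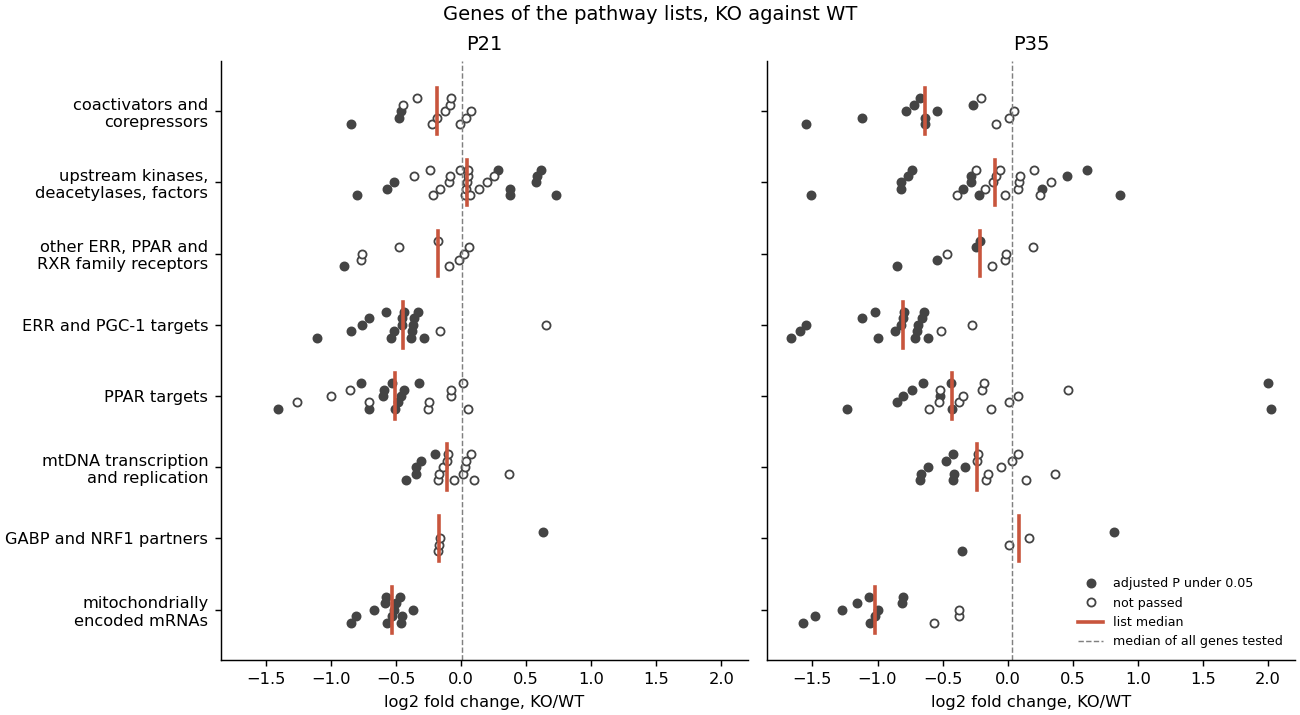
Log2 fold change of KO against WT for each gene tested in the 8 lists, at P21 (left) and P35 (right), with TMM scaling. Filled points passed an adjusted *P* of 0.05, red bars are list medians and the dashed line is the median of all genes tested. ERR and PGC-1 targets lie at medians of −0.45 and −0.80 and mitochondrially encoded mRNAs at −0.53 and −1.02, and with library totals the median of PPAR targets at P35 is −0.03.

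Some markers of other cell types moved with genotype at the ages when the regulators fell. The counts below stand against 11.4% of all genes risen and 9.57% fallen at P21, and 21.4% and 20.1% at P35. By edgeR with TMM scaling, those of fibroblasts and red blood cells at P35 and of Schwann cells at P21 were near or below these shares. The summed level of 6 macrophage markers was 57.8 to 79.6 CPM in WT and 96.3 to 126 CPM in KO at P21, and 72.9 to 87.2 and 111 to 173 CPM at P35, with 6 of 6 risen at both ages. The 5 endothelial markers summed to 564 to 862 CPM in WT and 447 to 531 CPM in KO at P21, with 3 of 5 fallen, and 4 of 5 fell at P35, whereas with library totals 0 and 1 fell. At P35, 5 of 6 slow and oxidative fibre markers and 4 of 5 adipocyte markers rose. The slow fibre sum was 935 to 2096 CPM in WT and 2106 to 9304 CPM in KO at P35, and the adipocyte sum was 218 to 350 and 357 to 483 CPM. Gene by gene, the median log2 fold change at P35 was 3.16 for slow fibre markers (from −0.02 to 5.49). For adipocyte markers it was 2.84 (from 0.39 to 3.69), a larger shift than that of their sum. The 6 muscle fibre markers summed to 87980 to 137600 CPM in WT and 59500 to 86180 CPM in KO at P35, where 1 of 6 rose and 2 fell, or 1 rose and 0 fell with library totals. The 4 satellite cell and myoblast markers summed to 38.4 to 61.2 CPM in WT and 73.3 to 97.3 CPM in KO at P21, with 2 risen and 2 fallen, and to 40.4 to 57.8 and 83.1 to 153 CPM at P35, with 2 risen and 1 fallen. The 5 Schwann cell markers had 0 risen at P21 and 2 at P35, or 5 at P35 with library totals, and their sums overlapped at both ages. The 4 brown adipocyte markers summed to 3.10 to 5.07 CPM in WT and 7.45 to 10.9 CPM in KO at P21, and to 3.77 to 7.31 and 11.2 to 23.7 CPM at P35, with 1 of 2 tested risen at each age. The 5 fibroblast markers had 1 risen at each age, or 4 with library totals, with overlapping sums. The 5 red blood cell markers summed to 3170 to 4350 CPM in WT and 1622 to 3280 CPM in KO at P21. There 1 of 5 fell by edgeR, or 0 with library totals, and DESeq2 called 4. At P35 their sums were 190 to 584 CPM in WT and 222 to 433 CPM in KO, with 0 changed by edgeR and 2 called by DESeq2. In WT at P14 the red blood cell sum was 443 to 755 CPM. Of all these markers, 1 of the 4 for brown adipocytes was at 0 in every WT library at P21, and no other was at 0 throughout a group at P21 or P35. Their part in the differences of the 9 regulators was not tested.

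Finally, the genes whose pattern over libraries was most like each regulator were found by Pearson's *r* of log2 CPM among 18583 genes. These values are descriptions over libraries that share ages, genotypes and scaling. Over all 32 libraries *Tfam* was nearest to *Cycs*, the gene of cytochrome c (*r*=0.986), and *Slc25a4*, the ADP/ATP carrier of muscle (0.985). *Esrra* was nearest to *D10Jhu81e* (0.989) and *Tigar* (0.988), *Esrrg* to *Slco5a1* and *Tmem25* (both 0.976), and *Ppard* to *Mrtfb* (0.968) and *R3hdm2* (0.964). For *Ppargc1a* they were *Tmem65*, a protein of the inner mitochondrial membrane, and *Grsf1*, a mitochondrial RNA-binding factor (0.960 and 0.958). Without P1, over the 24 libraries of P14 to P35, *Tfam* was again nearest to *Cycs* (0.876), with *Uqcrfs1*, the Rieske protein of complex III, next (0.876). *Ppard* kept *Mrtfb* (0.902) and *R3hdm2* (0.901), whereas the other 7 regulators had different nearest genes. *Ppara* was then nearest to *Vps13d* (0.962) and *Ralgapa1* (0.951), *Ppargc1a* to *Gm15543* (0.944) and *Acot13*, a mitochondrial thioesterase (0.937), and *Gabpa* to *Abhd13* (0.930) and *Zfp955b* (0.923). *Esrra* was nearest to *Mfsd4b1* (0.971) and *Ppp3cc* (0.967), *Ppargc1b* to *Disp1* (0.872) and *Nup205* (0.863), *Nrf1* to *Srfbp1* (0.803) and *BC005561* (0.797), and *Esrrg* to *Ank2* (0.757) and *Qk* (0.756). Among the 9 regulators themselves, the highest *r* over these 24 libraries was that of *Ppargc1a* with *Ppara* (0.840), followed by *Ppargc1b* with *Gabpa* (0.736) and *Ppargc1a* with *Tfam* (0.723).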

How the data were processed

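Per the labels, poly(A) RNA was made into directional libraries. The authors aligned the reads and deposited a single table on GRCm38 whose values are expected counts of genes in each library, unscaled and unpooled. The submitters' processing notes name STAR 2.6.1, RSEM 1.2.22 and DESeq2, whereas HTSeq is the counter in the methods. The annotation release and the strand setting are not given in the sources used here. Expected counts share out reads that align to several genes, and 4.26% of values were not whole.

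Counts were rounded and analysed in R 4.3.3. Genes were filtered with filterByExpr, libraries were scaled by TMM, and groups were compared with edgeR 4.0.16 (glmQLFit, glmQLFTest). Tests were two-sided, and *P*-values were adjusted by Benjamini and Hochberg's method across every gene of a comparison. Each pair of groups was fitted on its 8 libraries, and changes of the KO effect with age on all 32. Genes with an adjusted *P* under 0.05 were called changed (rose, fell). CPM used TMM over 32 libraries. Correlations were taken on log2 CPM (prior count 2). With no molecular identifiers stated, counts cover counting error only. No 2 replicates agreed within sampling noise (chi-square per degree of freedom of 10.5 or more in 48 pairs). Nothing in the labels says that replicates of a group were separate litters or days.

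Alternatives were DESeq2 1.42.0, RLE size factors, library totals, no filter, the replicate number as a block, other sets of libraries in the fit and leaving out each library. Replicate numbers come from the labels. At P14 deviations from the group means correlated in all 4 same-numbered pairs (mean *r*=0.330, lowest 0.190), so the numbers were taken to pair the libraries there. No other comparison met this. Analyses with both P14 replicate 4 libraries left out and the ratios within libraries were chosen after seeing the data. The 9 regulators and all lists were chosen with earlier results of these data known. Genes named were the 9 regulators, *Mtm1*, the 3 smallest adjusted *P*-values of each list at P21 and P35, the 2 nearest genes of each regulator, and markers by their sums. *Angptl4* was named outside this rule, after its value was seen. Protein sequences were not used here. The values of 1 gene of the lists are not reported here, though counts and medians include it. Symbols came from GENCODE M21 for 54809 of 54838 genes. Figures came from python 3.11.15, scipy 1.17.1 and matplotlib 3.10.9.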

Additional observations from a re-analysis of the deposited data

Results flagged for a closer look

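Among 72 groups of 4 libraries (9 regulators in 8 groups), 4 held a library whose gap to its nearest neighbour, as a ratio to the range of the group, passed the critical value of Dixon's test, which chance gives in about 1 in 20 groups. *Esrrg* in KO replicate 2 at P35 was at 61.3 CPM, with a ratio of 0.899. *Nrf1* in the same library was at 13.6 CPM, with a ratio of 0.887 in a group that spans 13.3 to 13.6 CPM. *Ppargc1b* in KO replicate 4 at P14 was at 11.4 CPM, with a ratio of 0.837. *Tfam* in KO replicate 3 at P21 was at 47.6 CPM, with a ratio of 0.849. The KO effect on *Ppargc1a* differed between P21 and P14 by −0.767 on the log2 scale in the interaction test (edgeR adjusted *P*=0.0208), with 4 of 4 KO libraries below every WT library at P21 and overlapping groups at P14 (39.2 to 46.9 CPM in KO, 39.4 to 43.2 CPM in WT).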

How the results depend on the processing

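With library totals in place of TMM, called genes numbered 5322 at P21, DEGs 1157 at P21 and 4676 at P35, and called regulators 3 at P35, 4 from P21 to P35 in WT and 2 in KO. That scaling reversed *Ppard* (0.15), *Tfam* (0.0399), *Gabpa* (0.0400), *Hcfc1* (0.0134) and *Gabpb1* (0.0261) at P21. It reversed *Ppargc1b* (0.18), *Esrrg* (0.39), *Tfam* (0.0523), *Gabpa* (0.0584), *Thra* (0.19) and *Hcfc1* (0.0553) at P35, and *Ppargc1b* from P1 to P14 (−0.17 in WT, −0.0015 in KO). The share of called genes that rose moved from 46.9% to 17.2% (WT) and 46.4% to 17.2% (KO) from P1 to P14, from 50.7% to 23.5% (WT) from P14 to P21, and from 56.6% to 39.7% (WT) and 49.8% to 79.9% (KO) from P21 to P35. For changes of the KO effect it moved from 60.0% to 50%, 76.8% to 95.8% and 31.0% to 86.8%. DESeq2 called 397 genes at P1, against 44, and 152 at P14, against 15. The fit of all 32 libraries called 13 genes at P1, 2 regulators from P14 to P21 in WT and 3 from P21 to P35 in KO. RLE size factors and no filter each called 1 regulator from P14 to P21 in KO, and no filter 3 from P21 to P35. For the change of the KO effect from P1 to P14, 22 genes (DESeq2) or 19 (16 libraries) passed, against 5, and 1 regulator each. From P14 to P21 these were 498 (DESeq2), 497 (library totals) and 164 (no filter), against 263, and from P21 to P35 786, 728, 212 and, with 16 libraries, 203, against 406. Without both P14 replicate 4 libraries, chosen after seeing the data, 32 genes passed at P14, and for the change from P14 to P21 131 genes and 0 regulators.

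With the replicate block, 3 genes and 0 regulators passed at P1 (*Ppara* adjusted *P*=0.105), 883 genes at P14, 2090 from P14 to P21 in WT and 2188 from P21 to P35 in KO, with 1 and 3 regulators in KO from P14 to P21 and P21 to P35. Outside P14 same-numbered libraries were not shown to be paired. The block also called *Esrrg* at P21 (adjusted *P*=0.0376).

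Leaving out 1 library at a time gave 6 to 92 genes at P1 (92 without KO replicate 4), 5 to 13 at P14, 2121 to 3045 at P21, with 417 to 626 DEGs, 2155 to 5080 (WT) and 2230 to 5624 (KO) from P14 to P21, and 1598 to 2517 (WT) and 2170 to 4311 (KO) from P21 to P35. For changes of the KO effect it gave 3 to 10, 117 to 285 and 181 to 494 genes. Regulators numbered 0 to 2 at P1, 1 to 4 (KO, P14 to P21), 1 to 2 (WT) and 2 to 4 (KO) from P21 to P35, and 0 to 1 for the KO effect from P1 to P14 and P14 to P21. *Esrrg* at P35 ran from −0.49 to 0.14 and *Ppard* at P21 from −0.10 to 0.0087. All 6 calls at P35, and those of *Ppargc1a*, *Esrra* and *Ppara* at P21, held in each of these fits. The cause of these shifts was not tested. With 4 libraries per group, small differences such as that of *Nrf1* at P35 may be missed.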
